A study of Mus musculus with 2 samples.

Results

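Immediate early genes encode transcription factors and small regulators that a cell switches on within minutes of a stimulus, from proteins it already holds. The 10 genes described here are Fos and Fosb, Jun, Junb and Jund (subunits of the dimeric factor AP-1), Atf3 (a related leucine zipper factor), Egr1 (a zinc finger factor), Nr4a1 and Nr4a2 (orphan nuclear receptors) and Ier2 (a small nuclear protein of the same early response). They were chosen by name as a set of early response factors, and all 10 were found among the 16381 genes listed for the colon, the 18262 listed for the small intestine and the 16098 listed for both. Growth factors, cytokines, stretch and cell injury act through kinase cascades on factors already bound at these genes, the transcripts are short-lived, and the proteins then switch on later genes. Digestion of a tissue into single cells is itself known to switch them on, so in dissociated gut tissue their RNA can stem from the animal or from the handling.

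Both libraries came from healthy, untreated mice, 1 library per tissue. Collagenase and dispase acted on the colon for 60 minutes and on the small intestine for 45 minutes, in both after 25 minutes of epithelial stripping at body temperature. Live cells without surface CD45 (immune) or EpCAM (epithelial) were then sorted and run fresh on a droplet platform that counts RNA molecules from their 3′ ends. The strain, age, sex and number of the animals are not given in the sources used here. Tissue, digestion time, animal and, from the Xist and Y-linked UMIs given below, the mix of sexes differ together between the libraries and cannot be told apart. A single library per tissue allows no test, and none was made: the 95% intervals below cover counting error only. They treat UMIs as independent, whereas the UMIs of a gene were gathered in part of the cells. They are therefore too narrow for differences between cells, and intervals that do not overlap do not settle an order. No type in either library lacked these genes, so none could serve as a background for free RNA.

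The colon library held 6018 cells with a median of 6598 UMIs (unique molecular identifiers, each marking 1 captured RNA molecule) and the small intestinal library 9359 cells with a median of 5943. The depositors' cell labels were used. They gave 3 fibroblast types: CD81- FBs, Trophocytes (CD81-positive fibroblasts) and SEMFs (PDGFRa-high fibroblasts). The others compared were LECs (lymphatic endothelium), BECs (blood endothelium) and SMCs (smooth muscle), and 12 colon and 24 small intestinal cells of other labels were left out. Lymphatic markers reached 22610 and 19665 CPM (UMIs of the gene per 1000000 UMIs summed over the type) in LECs of the colon and small intestine. Smooth muscle markers reached 15097 and 9193 CPM in SMCs. Small intestinal SMCs also held fibroblast markers at 11017 CPM, above their smooth muscle markers, against 3214 CPM in colon SMCs. Their pericyte markers summed to 1262 CPM, against 554 in colon SMCs. Whether these markers stem from a mixture of cells, and its part in the SMC values, was not tested. The label BECs was the thinnest, with 53 cells in the colon and 524 in the small intestine. The libraries shared 21 cell barcodes. The colon library mixed 1751 cells with Y-linked UMIs only and 2700 with Xist UMIs only, and the small intestinal library had 6896 cells with Y-linked UMIs and no listed Xist, so the make-up of the libraries by sex differed.

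Start regions of 4 members are shown in pairs of paralogues: Fos with Fosb, and Nr4a1 with Nr4a2. In both pairs the proportion of the paralogues to each other differed between the tissues in most types. Jun is added for its variant site. Each line gives the 130 bases before the start, read 5′ to 3′ on the gene's strand, from RefSeq on GRCm38.p6. Capitals mark TGACG (the core of a cyclic AMP response element, read as CGTCA on the other strand), GCGNGGGCG (the site of the EGR family), TGANNTCA (an AP-1 or CRE variant) and TATAA.
Fos, chr12:85473760-85473889, + strand: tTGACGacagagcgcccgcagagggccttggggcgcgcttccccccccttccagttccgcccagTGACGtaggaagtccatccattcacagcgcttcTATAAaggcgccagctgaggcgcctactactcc
Fosb, chr7:19310046-19310175, - strand: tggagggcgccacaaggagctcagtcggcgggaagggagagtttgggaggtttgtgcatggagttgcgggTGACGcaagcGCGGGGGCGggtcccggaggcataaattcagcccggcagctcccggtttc
Jun, chr4:95052223-95052352, - strand: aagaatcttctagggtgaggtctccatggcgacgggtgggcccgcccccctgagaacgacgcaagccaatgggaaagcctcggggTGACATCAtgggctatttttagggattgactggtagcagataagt
Nr4a1, chr15:101266716-101266845, + strand: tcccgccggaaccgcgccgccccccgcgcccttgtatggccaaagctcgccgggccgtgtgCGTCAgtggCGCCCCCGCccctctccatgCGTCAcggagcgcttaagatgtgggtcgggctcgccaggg
Nr4a2, chr2:57124004-57124133, - strand: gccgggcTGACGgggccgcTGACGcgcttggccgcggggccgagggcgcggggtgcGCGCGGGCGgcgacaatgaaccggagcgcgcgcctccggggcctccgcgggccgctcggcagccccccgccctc

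For 8 of the 10 genes, both strands of the 250 bases before their RefSeq starts were searched. Ier2 had no entry in the promoter set, and Egr1 was left out of the search, so the counts below say nothing of either. TGACG stood in 6 of these 8 windows (Fos, Fosb, Junb, Atf3, Nr4a1 and Nr4a2), against 17.8% of all 32851 windows. The window of Nr4a1 and that of Nr4a2 each held 4 copies. GCGNGGGCG stood in Fosb, Nr4a1 and Nr4a2, against 4.70% of all windows, and TGANNTCA in Jun and Jund, against 11.9%. TATAA stood in Fos and Nr4a2, against 22.8%, and neither the AP-1 site TGANTCA (6.75% of all windows) nor the CArG box of serum response factor (1.47%) was found in any of the 8. These letters describe the windows and say nothing of use of a site, and sites farther out were not searched. All the motifs were settled after their matches had been seen, so the shares over all windows stand beside the counts as a description only.

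In both tissues the 10 genes together were among the larger parts of the RNA in blood endothelium and Trophocytes and among the smaller parts in LECs (colon) and SEMFs (small intestine). In the colon their summed level was 17969 CPM in Trophocytes (95% Poisson interval 17865 to 18074), 14292 in BECs, 11061 in SMCs, 7034 in CD81- FBs, 6667 in SEMFs and 4198 in LECs. In the small intestine it was 28758 CPM in BECs (28534 to 28984), 19791 in Trophocytes, 10534 in SMCs, 10490 in LECs, 6122 in CD81- FBs and 2461 in SEMFs. Trophocytes, CD81- FBs and SMCs thus kept similar sums in both libraries. SEMFs, LECs and BECs did not: the sum was higher in the colon in SEMFs, and higher in the small intestine in LECs and BECs. As a part of all UMIs, the 10 genes ranged from 0.246% in small intestinal SEMFs to 2.88% in small intestinal BECs.

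**Figure D1:**
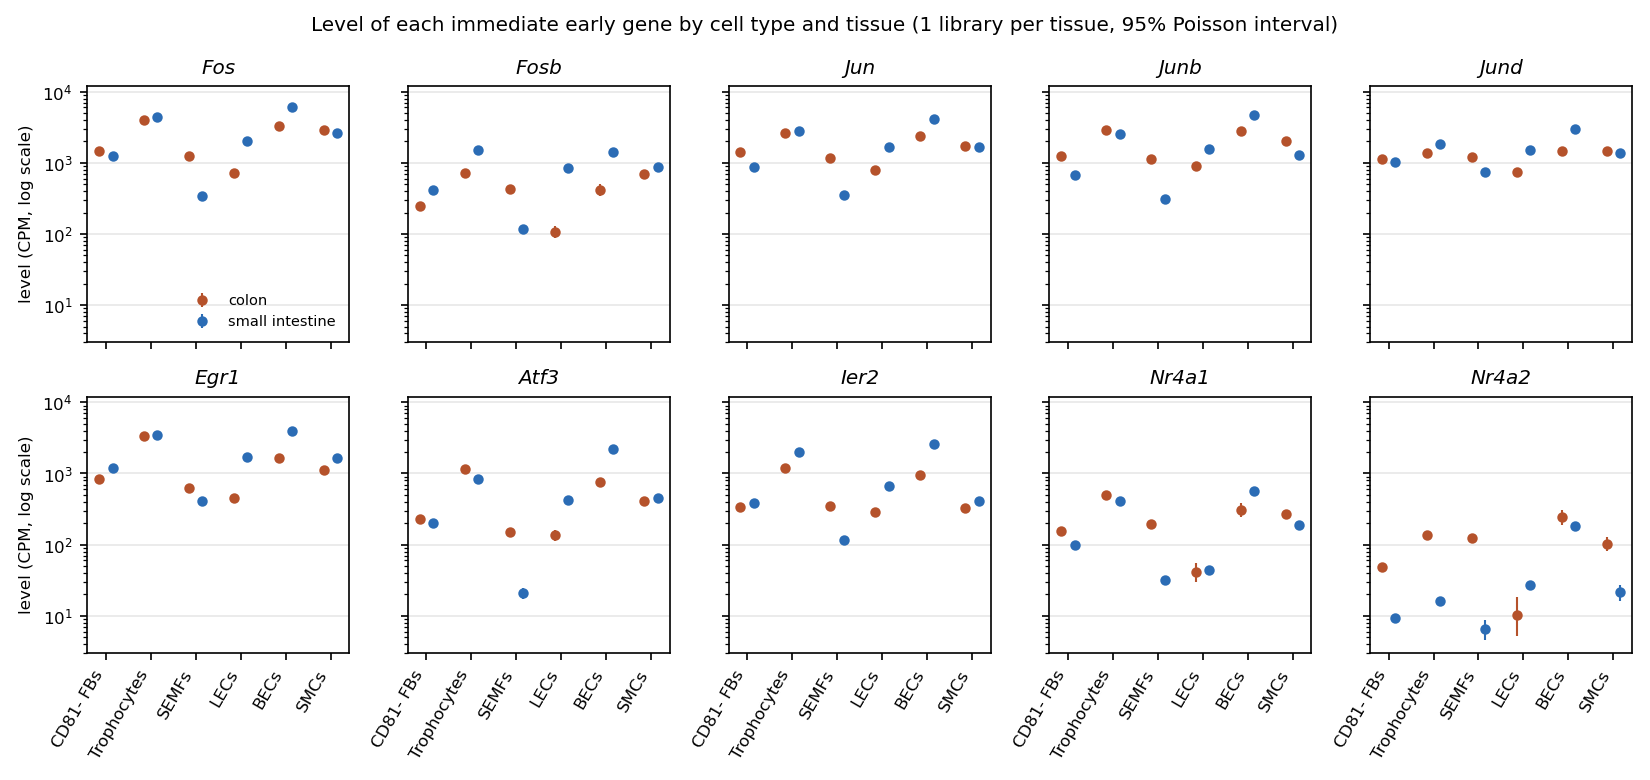
Level of each gene in CPM (log axis) in 6 cell types of the colon and small intestine, 1 library per tissue, with 95% Poisson intervals that are often smaller than the point. Small intestinal SEMFs are lowest in all 10 panels for that tissue and colon LECs are lowest in all 10 for the colon.

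Fos, the AP-1 subunit that cannot pair with itself, was the most abundant member in 10 of the 12 type and library groups. Its interval overlapped that of Jund in colon SEMFs (1226 CPM) and that of Egr1 in small intestinal CD81- FBs (1207 CPM). Since 1 captured molecule counts once whatever the transcript's length, CPM values of different genes are set side by side here. Whether molecules of different genes were captured equally well was not tested, so proportions between genes are proportions of UMIs. In the colon, Fos stood at 4054 CPM in Trophocytes, 3282 in BECs, 2928 in SMCs, 1447 in CD81- FBs, 1257 in SEMFs and 709 in LECs. The small intestine had 5991 CPM in BECs, 4334 in Trophocytes, 2591 in SMCs, 2035 in LECs, 1230 in CD81- FBs and 346 in SEMFs. No neighbours in either order had overlapping intervals. Colon BEC Fos came from 53 cells, though, and the 10% of them with the most Fos held 48.0% of its UMIs. The log2 ratio of colon to small intestine was 1.86 in SEMFs (95% interval 1.80 to 1.93) and -1.52 in LECs (-1.63 to -1.42), and lay between -0.87 and 0.23 in the other 4 types.

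Fosb, a paralogue of Fos that comes up slightly later in many cells, was lower than Fos in every type of both libraries. Its colon levels were 723 CPM in Trophocytes, 699 in SMCs, 426 in SEMFs, 419 in BECs, 246 in CD81- FBs and 106 in LECs, and the intervals overlapped between Trophocytes and SMCs and between SEMFs and BECs. Small intestinal Fosb was at 1537 CPM in Trophocytes, 1426 in BECs, 862 in SMCs, 856 in LECs, 416 in CD81- FBs and 117 in SEMFs. It was the only member whose highest small intestinal level was in Trophocytes rather than BECs. Fosb had the most negative log2 ratio of any member in LECs, at -3.01 (-3.29 to -2.74), an 8.07-fold lower level in the colon.

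Set against Fos, Fosb took a smaller part in the colon. Colon CD81- FBs held 17.0 Fosb UMIs per 100 Fos UMIs (16.6 to 17.5) and small intestinal CD81- FBs 33.8 (33.0 to 34.7). For Trophocytes the values were 17.8 and 35.5, for LECs 15.0 and 42.0, for BECs 12.8 and 23.8, and for SMCs 23.9 and 33.3. In SEMFs, where both genes were higher in the colon, the proportion was 33.9 in the colon and 34.0 in the small intestine. The proportion was therefore lower in the colon in 5 of the 6 types, with intervals that did not overlap, and indistinguishable in SEMFs.

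Jun, the AP-1 subunit that can also pair with itself, varied less over types than Fos. In the colon it stood at 2584 CPM in Trophocytes, 2414 in BECs, 1712 in SMCs, 1398 in CD81- FBs, 1169 in SEMFs and 797 in LECs, and the first 2 overlapped. Small intestinal Jun was at 4106 CPM in BECs, 2791 in Trophocytes, 1675 in LECs, 1671 in SMCs, 877 in CD81- FBs and 358 in SEMFs, with LECs and SMCs overlapping. Colon SEMFs thus had over 3 times the Jun level of small intestinal SEMFs (3.27-fold), and colon LECs less than the small intestinal ones (log2 ratio -1.07).

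Junb, a Jun paralogue that is a weaker activator than Jun, had levels close to those of Jun in each type. The colon values were 2868 CPM in Trophocytes, 2774 in BECs (overlapping), 2019 in SMCs, 1231 in CD81- FBs, 1144 in SEMFs and 912 in LECs. The small intestinal values were 4665 CPM in BECs, 2547 in Trophocytes, 1554 in LECs, 1304 in SMCs, 678 in CD81- FBs and 314 in SEMFs. Junb per 100 Jun UMIs ran from 77.2 in small intestinal CD81- FBs to 118 in colon SMCs. It was higher in the colon than in the small intestine in CD81- FBs, Trophocytes, SEMFs, LECs and SMCs, with non-overlapping intervals, while BECs gave 115 (103 to 128) and 114 (110 to 117).

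Jund, the Jun paralogue that many resting cells make constantly, had the flattest profile. Colon levels were 1489 CPM in SMCs, 1483 in BECs, 1378 in Trophocytes, 1226 in SEMFs, 1116 in CD81- FBs and 747 in LECs, a range of 1.99-fold in which the first 3 overlapped with their neighbours. Small intestinal levels were 3015 CPM in BECs, 1867 in Trophocytes, 1511 in LECs, 1373 in SMCs, 1022 in CD81- FBs and 743 in SEMFs, a range of 4.06-fold. In small intestinal SEMFs, where the other members were low, Jund alone made up 30.2% of the members' UMIs, and 208 Jund UMIs stood against 100 of Jun (198 to 218). In colon Trophocytes the same proportion was 53.3 (52.0 to 54.7), so Jund and Jun UMIs were not in 1 ratio over types.

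Atf3, a stress-induced leucine zipper factor that mostly represses, had the widest range over types in the small intestine. It stood there at 2237 CPM in BECs, 833 in Trophocytes, 446 in SMCs, 430 in LECs, 200.5 in CD81- FBs and 20.7 in SEMFs (17.4 to 24.5), 108-fold from highest to lowest. The colon had 1153 CPM in Trophocytes, 760 in BECs, 405 in SMCs, 228 in CD81- FBs, 152 in SEMFs and 135 in LECs, 8.53-fold from highest to lowest, and the last 2 overlapped. Colon SEMFs had 7.35 times the level of small intestinal SEMFs (log2 ratio 2.88, 2.62 to 3.15). After each cell was thinned to 2000 UMIs, Atf3 was detected in 15.9% of colon SEMFs and 2.87% of small intestinal SEMFs (31.4% and 7.66% before thinning).

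Egr1, the zinc finger factor that mitogens and stress induce through serum response factor, stood out less between the tissues in SEMFs than Fos did. Its colon levels were 3386 CPM in Trophocytes, 1665 in BECs, 1111 in SMCs, 826 in CD81- FBs, 625 in SEMFs and 452 in LECs, with no overlap between neighbours. Small intestinal Egr1 was at 3990 CPM in BECs, 3467 in Trophocytes, 1691 in LECs, 1661 in SMCs, 1207 in CD81- FBs and 407 in SEMFs. In SEMFs its log2 ratio was 0.62 (0.55 to 0.69), the smallest of the 10. Egr1 per 100 Fos UMIs was 49.7 in colon SEMFs (48.0 to 51.5) and 118 in small intestinal SEMFs (111 to 124). The proportion was also lower in the colon in CD81- FBs (57.1 against 98.1), LECs (63.8 against 83.1), BECs (50.7 against 66.6) and SMCs (38.0 against 64.1), and slightly higher in Trophocytes (83.5 against 80.0).

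Ier2, a nuclear protein that rises early after growth stimuli, was lower in the other fibroblasts than in Trophocytes in both tissues, as were all other members. In the colon it stood at 1191 CPM in Trophocytes, 942 in BECs, 349 in SEMFs, 337 in CD81- FBs, 325 in SMCs and 287 in LECs, and neighbouring intervals overlapped among the last 4. Its small intestinal levels were 2580 CPM in BECs, 1984 in Trophocytes, 667 in LECs, 414 in SMCs, 382 in CD81- FBs and 117 in SEMFs. Ier2 per 100 Junb UMIs was lower in the colon in all 6 types, from 16.1 against 31.7 in SMCs and 41.5 against 77.9 in Trophocytes to 30.5 against 37.3 in SEMFs, with no overlap of intervals.

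Nr4a1, the nuclear receptor also called Nur77, was among the rarer members. Colon levels were 496 CPM in Trophocytes, 312 in BECs, 269 in SMCs, 196 in SEMFs, 156 in CD81- FBs and 41.3 in LECs. Small intestinal levels were 568 CPM in BECs, 414 in Trophocytes, 190 in SMCs, 100.0 in CD81- FBs, 43.5 in LECs and 32.2 in SEMFs. In LECs, where the other 9 members were lower in the colon, Nr4a1 was not detectably so, with a log2 ratio of -0.07 (-0.55 to 0.37) on 44 colon UMIs.

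Nr4a2, the receptor also called Nurr1, was the rarest member and, outside the endothelial types, the one that differed most between the tissues. In the colon it stood at 241 CPM in BECs (186 to 307), 137 in Trophocytes, 123 in SEMFs, 104 in SMCs, 47.8 in CD81- FBs and 10.3 in LECs (5.15 to 18.5). The small intestinal values were 181 CPM in BECs (164 to 200), 27.2 in LECs, 21.4 in SMCs, 16.4 in Trophocytes, 9.28 in CD81- FBs and 6.44 in SEMFs (4.64 to 8.70). All 3 fibroblast types and the SMCs of the colon lay above the same types of the small intestine. The log2 ratio was 4.25 in SEMFs (3.81 to 4.74), 3.06 in Trophocytes (2.86 to 3.28), 2.36 in CD81- FBs (2.14 to 2.59), 2.28 in SMCs (1.78 to 2.78) and 0.41 in BECs (0.01 to 0.79). In LECs it was -1.40 (-2.42 to -0.54) on 11 colon UMIs.

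In the thinned cells, Nr4a2 was detected in 13.6% of colon SEMFs and 1.2% of small intestinal SEMFs, in 15.4% and 2.01% of Trophocytes, and in 8.09% and 1.73% of CD81- FBs. Before thinning the shares were 29.4% and 3.25%, 32.7% and 7.21%, and 20.8% and 5.07%. The difference in SEMFs did not rest on 1 cell: without the cell with the most Nr4a2 UMIs in each library, the log2 ratio in SEMFs was 4.30. With its paralogue as the yardstick, Nr4a2 per 100 Nr4a1 UMIs was 62.8 in colon SEMFs and 20.0 in small intestinal SEMFs, 27.6 and 3.95 in Trophocytes, 30.5 and 9.28 in CD81- FBs, 38.5 and 11.3 in SMCs and 77.4 and 31.9 in BECs. In LECs it was 25.0 (11.6 to 49.2) and 62.6 (54.1 to 72.4). Nr4a1 and Nr4a2 were therefore in different proportions in the 2 tissues in all 6 types, with Nr4a2 per Nr4a1 higher in the colon in 5.

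**Figure D2:**
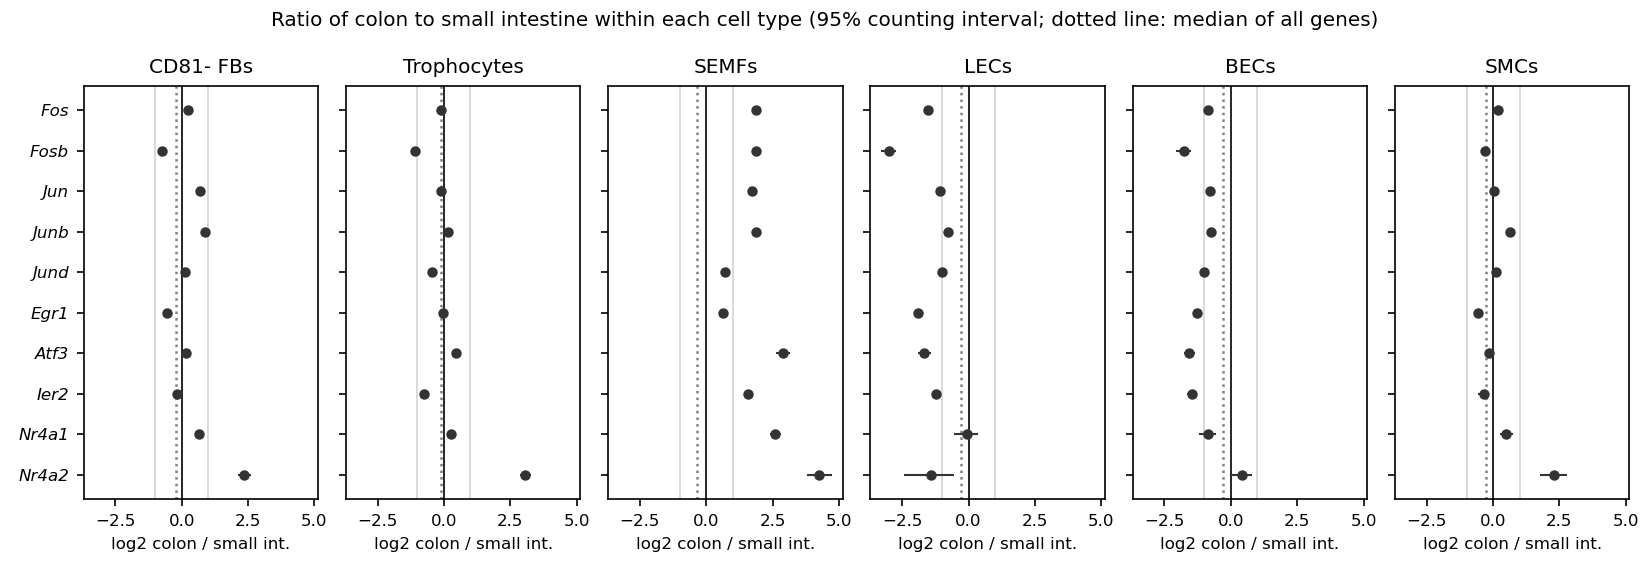
Log2 ratio of the colon level to the small intestinal level for the 10 genes in each cell type, with exact 95% counting intervals. The solid line is 0, the dotted line the median of all genes of that type and the pale lines mark 2-fold. All 10 points lie right of 0 in SEMFs and left of it in LECs, and Nr4a2 lies furthest right in CD81- FBs, Trophocytes, SEMFs, BECs and SMCs.

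Counted against a 2-fold limit, SEMFs and LECs were the types in which most members moved together, in opposite directions. In SEMFs 8 of the 10 members were past 2-fold higher in the colon, against 5.36% of the 10001 genes with at least 100 UMIs over both libraries. None was past 2-fold higher in the small intestine, where the share of all genes was 15.1%. The exceptions were Jund (log2 ratio 0.72) and Egr1 (0.62), and the median over the 10 was 1.86, against -0.33 over all genes of the type. In small intestinal SEMFs the summed pericyte markers were at 656 CPM, against 93.5 in the colon, fibroblast markers at 13088 against 6344 CPM and smooth muscle markers at 2291 against 1508. Fibroblast markers were also higher in the small intestine in CD81- FBs (20399 against 12858 CPM) and Trophocytes (39534 against 24604). Whether the sums in SEMFs stem from a mixture of cells, and its part in the difference, was not tested. On the means of the deposited natural log values, 3 members were past the same limit in place of 8. Differences of these means are not folds of CPM: 1 is added before the log is taken, which shrinks the differences of rarely detected genes. The part of this in the lower count was not tested.

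In LECs 8 of the 10 members were past 2-fold higher in the small intestine, against 15.4% of 9169 genes, and 0 past it in the colon, against 3.45%. The exceptions were Junb (-0.77) and Nr4a1 (-0.07), and the median was -1.31, against -0.27 over all genes. The colon value came from 217 cells, which the chromosomal markers divided: 53 cells with Y-linked UMIs only and 98 with Xist only. Fos stood at 209 CPM in the first and 1076 CPM in the second, Egr1 at 177 and 643, and Junb at 523 and 1265. With the Xist cells alone 4 members were past 2-fold higher in the small intestine, and with the Y-linked cells alone 10. Of those 10, Nr4a1 rested on 4 colon UMIs. Nr4a2 had 0 colon UMIs in the Y-linked cells, and its call came from 3 UMIs put in place of 0. Relative to the type's median gene 5 were, and on mean natural log values 3. In Trophocytes the order of the 2 kinds of colon cell was the opposite: Fos stood at 5032 CPM in Y-linked cells and 3482 in Xist cells, and all 10 log2 ratios of Y-linked to Xist cells were above 0.

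Among BECs, 5 members were past 2-fold higher in the small intestine (Fosb, Jund, Egr1, Atf3 and Ier2), against 19.6% of 4221 genes, and 0 in the colon, against 3.10%. The median was -0.95, against -0.30 over all genes, and Nr4a2 was the exception in sign. Relative to the median gene the count was 3, and at a 1.5-fold limit 9. Of the 53 colon cells 45 carried the capillary label, and with those alone the count was 7 and the Nr4a2 log2 ratio -0.04. Fibroblast markers summed to 2959 CPM in colon BECs and 314 CPM in small intestinal BECs, immune markers to 115 and 0.912 CPM, and lymphatic markers to 11.1 and 1168 CPM. Of the 5 lymphatic markers Lyve1, Mmrn1 and Reln were at 0 in colon BECs. Whether these sums stem from a mixture of cells, and its part in the BEC values, was not tested.

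Few members were past 2-fold in the remaining types, but Nr4a2 was far higher in the colon in each. The folds were 5.15 in CD81- FBs, 8.37 in Trophocytes and 4.85 in SMCs. In CD81- FBs 1 member, Nr4a2, was past 2-fold higher in the colon (6.46% of 12194 genes) and 0 in the small intestine (10.4%), with a median of 0.21. At a 1.5-fold limit Jun, Junb and Nr4a1 joined it in the colon and Fosb (1.69-fold) passed in the small intestine, and relative to the median gene Junb joined it. In Trophocytes Nr4a2 was past the limit in the colon (4.23% of 10454 genes) and Fosb in the small intestine (8.24%), with a median of -0.07. In SMCs Nr4a2 was past it in the colon (3.37% of 5602 genes) and 0 members in the small intestine (17.3%), with a median of 0.08. For all fibroblasts pooled, Nr4a2 was past it in the colon (6.88% of 13307 genes) and Fosb in the small intestine (9.47%). Of the pooled cells, Trophocytes made up 875 of 5611 in the colon and 1913 of 5845 in the small intestine. Pooled ratios thus also carry the mix of labels. The Fosb call in pooled fibroblasts and in Trophocytes was lost relative to the median gene and with Y-linked colon cells alone. The log2 ratio of the median gene lay between -0.11 and -0.33 in the 7 comparisons, so a value near 0 was above that of most genes.

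The spread over cells within a type was wider than the gap between tissues. The 10th percentile of the summed members was 20.7 UMIs per 10000 UMIs of the cell in colon CD81- FBs, the median 59.4 and the 90th percentile 132. In small intestinal CD81- FBs the same values were 10.5, 35.0 and 144, so that tissue had more low cells and a slightly higher upper end. Small intestinal LECs ran from 9.64 to 240, a 24.9-fold range, and small intestinal Trophocytes from 91.0 to 332, a 3.64-fold range. The median of small intestinal SEMFs (16.2) lay just above the 10th percentile of colon SEMFs (13.2).

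**Figure D3:**
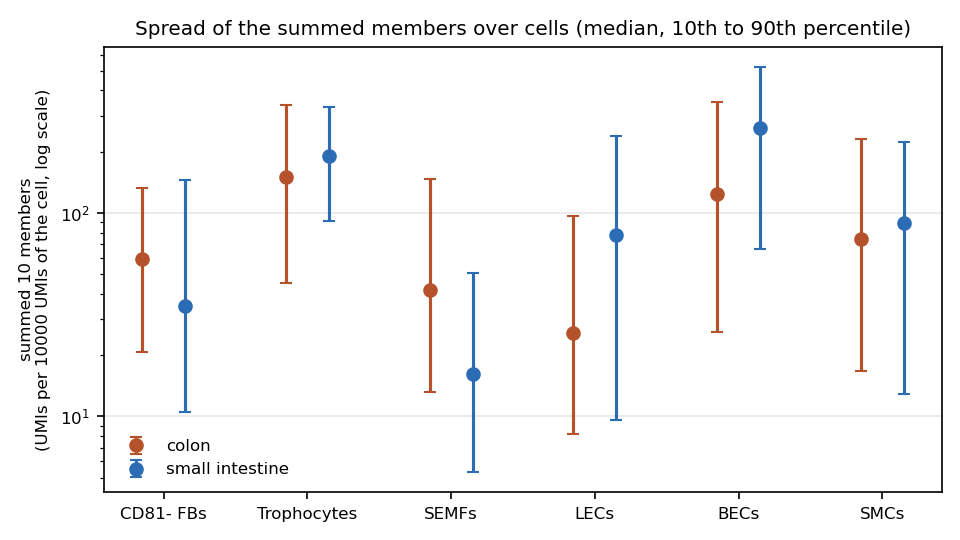
Summed UMIs of the 10 genes per 10000 UMIs of the cell (log axis) in each cell type of both tissues: points are medians over cells and bars run from the 10th to the 90th percentile. The bars of the 2 tissues overlap in every type, the bar of small intestinal Trophocytes is the shortest and that of small intestinal LECs the longest.

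The number of different members seen per cell told the same types apart. After thinning to 2000 UMIs, which left out 69 colon and 343 small intestinal cells, 8 or more of the 10 members were detected in 72.6% of small intestinal BECs (95% Clopper-Pearson interval 68.2 to 76.7), 62.5% of small intestinal Trophocytes and 49.5% of colon Trophocytes. In small intestinal SEMFs 0.927% of cells (0.445 to 1.70) reached 8 and 57.2% (54.2 to 60.2) had 2 or fewer. Colon SEMFs had 12.4% and 24.4% in these classes, and colon LECs 2.30% and 42.9%. CD81- FBs with 2 or fewer were 12.2% in the colon and 30.1% in the small intestine, and those with 8 or more 10.6% and 12.4%.

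Within a type the molecules were spread unevenly over cells. If Fos molecules were spread over small intestinal CD81- FBs in proportion to depth, 99.4% of the cells would have had at least 1, and 69.8% did. The variance of Fos over these cells was 17.6 times that of such a Poisson spread, against 3.35 times for Jund. The 10% of cells with the most Fos held 44.9% of its UMIs in small intestinal CD81- FBs, 36.1% in colon CD81- FBs and 22.7% in small intestinal Trophocytes. For Jund the 3 values were 26.0%, 23.6% and 23.2%.

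Over cells of 1 type and library, most members went up and down together. Spearman's rho between members (UMIs per 10000 UMIs of the cell) had a median over the 45 pairs of 0.283 in colon CD81- FBs, 0.395 in SEMFs, 0.436 in Trophocytes, 0.397 in BECs, 0.231 in LECs and 0.483 in SMCs. In the small intestine the medians were 0.458, 0.216, 0.375, 0.484, 0.452 and 0.489 in the same order. Between all genes detected in at least 10% of cells of each type, the median was 0.007 to 0.027. Reference genes such as Actb and Gapdh gave medians of 0.030 to 0.113. These are descriptions: cells of a library share its handling and differ in depth. Thinned to 2000 UMIs, the median in CD81- FBs was 0.152 in the colon and 0.303 in the small intestine.

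Fos and Egr1, induced by much the same signals, were the closest pair in 6 of the 12 type and library groups. Their rho was 0.607 in colon CD81- FBs, 0.712 in small intestinal CD81- FBs, 0.784 in colon SMCs and 0.436 in small intestinal SEMFs. In thinned small intestinal CD81- FBs Egr1 was detected in 85.9% of the cells with Fos (84.1 to 87.7) and 48.9% of those without (46.1 to 51.7). For Fosb the shares were 51.5% and 8.43%. Jund was seen in 87.5% and 74.9% of the same cells, a smaller gap.

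Nr4a2 went least with the rest. Its rho with the sum of the other 9 members was 0.0384 in small intestinal CD81- FBs, 0.0455 in Trophocytes and 0.0503 in SEMFs, where it also had the fewest UMIs. In colon SEMFs, with 913 Nr4a2 UMIs, it was 0.372, and Nr4a2 was detected there in 25.2% of cells with Nr4a1 (20.1 to 30.8) and 9.73% of cells without (7.79 to 11.97). Jund came next in the 3 colon fibroblast types, with a rho of 0.284 in colon CD81- FBs, against 0.701 for Egr1 and 0.683 for Fos. Without Nr4a1 and Nr4a2 the median over pairs was 0.387 in colon CD81- FBs and 0.585 in small intestinal CD81- FBs.

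**Figure D4:**
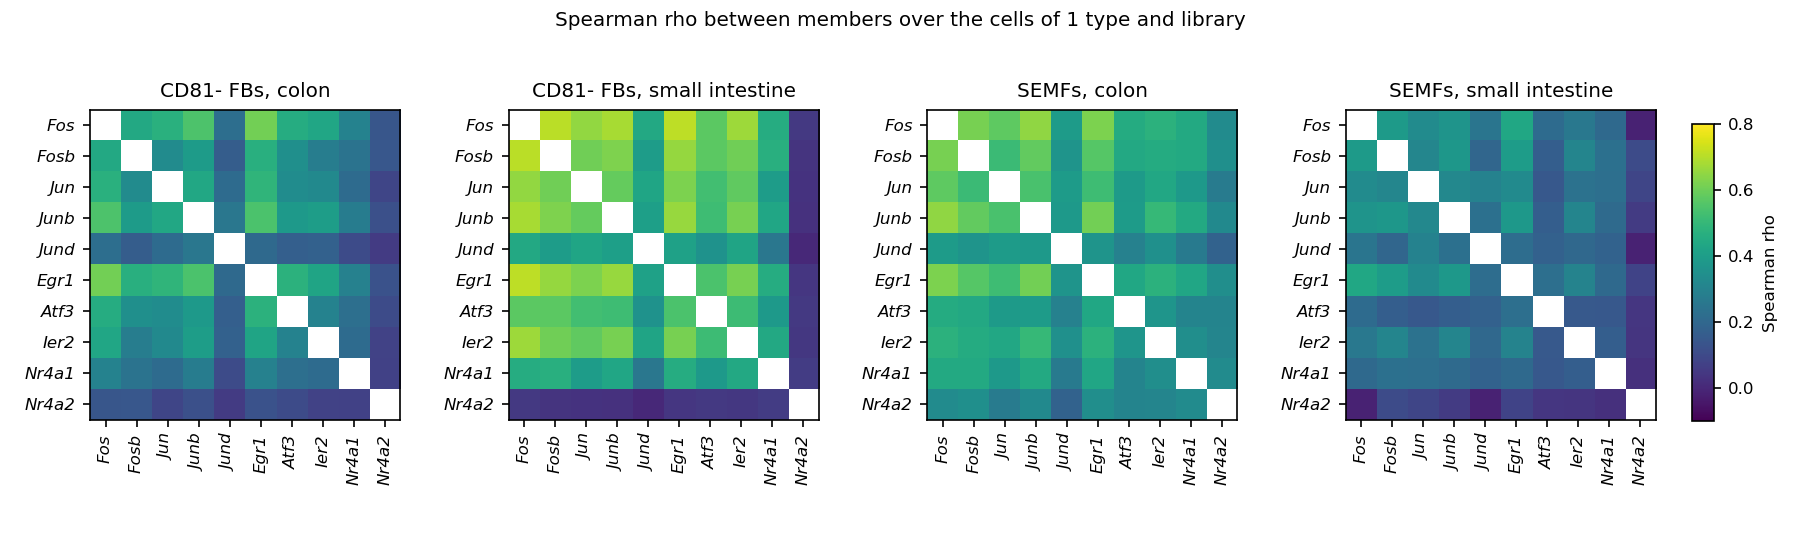
Spearman's rho between each pair of the 10 genes over the cells of 1 type and library (colour scale from -0.1 to 0.8) for CD81- FBs and SEMFs of both tissues. Fos, Fosb, Jun, Junb and Egr1 form the brightest block, Nr4a2 is dark in both small intestinal panels, and small intestinal SEMFs are the dimmest panel for the other genes.

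The genes whose level over cells was most like that of the members were other early response genes and heat shock genes. Over 5691 genes detected in each of the 3 fibroblast types of both libraries, the median of the mean rho with the summed members (6 groups) was -0.012. The 10 highest were Zfp36 (0.546), Btg2 (0.543), Hspa1a (0.540), Hspa1b (0.513), Dusp1 (0.454), Socs3 (0.416), Dnajb1 (0.415), Ppp1r15a (0.415), Gadd45b (0.399) and Hsp90aa1 (0.385). Zfp36 encodes an mRNA decay factor, Dusp1 a phosphatase that turns off MAP kinases and Socs3 an inhibitor of cytokine signalling. The 4 heat shock genes encode chaperones, and Hspa1a ranged from 0.153 to 0.733 over the 6 groups, whereas Zfp36 ranged from 0.355 to 0.702. The 27 measurable genes of a list of other early response genes had a median of 0.224, and 6 of them were in the first 10.

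The correlation with heat shock genes differed between types. The rho between the summed members and 11 summed heat shock genes was 0.764 in colon CD81- FBs, 0.767 in SEMFs, 0.698 in Trophocytes, 0.898 in BECs (53 cells), 0.702 in LECs and 0.823 in SMCs. Small intestinal values were 0.795 in CD81- FBs, 0.731 in SMCs, 0.629 in LECs, 0.407 in SEMFs, 0.166 in Trophocytes and 0.107 in BECs. The colon values were thus all high, and the small intestinal ones were low in the types with the highest members, Trophocytes and BECs. Colon LECs and Trophocytes gave 0.411 and 0.575 with Y-linked cells alone.

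Between the tissues the heat shock sum went the same way as the members' sum in 4 of the 6 types and the opposite way in BECs and Trophocytes. It was 15753 CPM in colon BECs and 9032 CPM in small intestinal BECs, whereas the members summed to 14292 and 28758 CPM. Colon Trophocytes had 13186 CPM and small intestinal Trophocytes 9383 CPM, against member sums of 17969 and 19791 CPM. In SEMFs both were higher in the colon: heat shock genes were at 7110 and 2751 CPM, and 6 of the 11 were past 2-fold there (5.36% of all genes). Both were also higher in the colon in CD81- FBs (heat shock 6941 and 4459 CPM) and SMCs (9608 and 7633 CPM), and in LECs both were higher in the small intestine (7565 CPM in the colon, 10564 in the small intestine). Of small intestinal BECs 23.5% (19.9 to 27.3) had no UMI of Hspa1a or Hspa1b, and those cells had a median of 282 member UMIs per 10000, against 253 in cells with one. Small intestinal CD81- FBs without Hspa1a or Hspa1b (23.8%) had 16.4, against 53.3 in those with one. In all 6 colon types the cells without (1 cell in BECs, 106 in CD81- FBs) had the lower median.

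**Figure D5:**
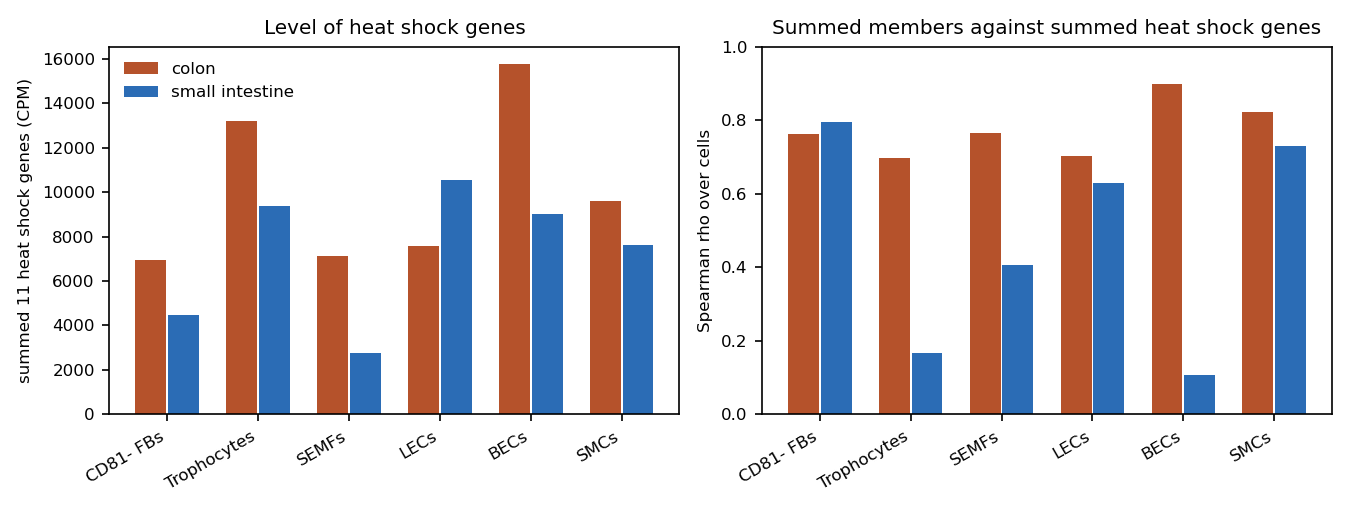
Left, summed level of 11 heat shock genes in CPM by cell type and tissue. Right, Spearman's rho over cells between the summed members and the summed heat shock genes. Colon bars on the right all lie between 0.698 and 0.898, while small intestinal Trophocytes and BECs lie at 0.166 and 0.107.

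In 11 of the 12 groups, depth, mitochondrial share and ribosomal protein share had a rho with the members smaller in size than that of the heat shock genes. The exception was small intestinal BECs, where the heat shock rho was 0.107 and those of the ribosomal protein share, UMIs per cell and mitochondrial share were 0.320, 0.225 and -0.109. The rho of the summed members with UMIs per cell lay between -0.102 and 0.257 over the 12 groups, and that with the mitochondrial share between -0.380 (colon SMCs) and 0.0618. The rho with the ribosomal protein share lay between -0.177 in small intestinal SEMFs and 0.320 in small intestinal BECs.

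Related genes were read from lists fixed by name, with the same 2-fold limit and backgrounds. Ratios in pooled fibroblasts also carry the unlike mix of the 3 labels in the 2 libraries. In the pooled fibroblasts, 37 other early response genes had at least 100 UMIs. Of these, 9 were past 2-fold higher in the colon (6.88% of all genes) and 2 in the small intestine (9.47%). Their median log2 ratio was 0.29, against -0.17 for all genes. The highest were Fosl1, a late Fos family member (3.24), Dusp5 (2.20) and Hes1, a target of Notch signalling (2.06), and the lowest Nfkbiz (-2.05), Zfp36 (-1.41) and Klf2 (-0.85). Past the limit in the colon were 13 of 33 in SEMFs (5.36% of all genes), 11 of 37 in CD81- FBs (6.46%), 11 of 36 in Trophocytes (4.23%), 2 of 34 in BECs (3.10%), 3 of 34 in LECs (3.45%) and 3 of 29 in SMCs (3.37%). In the small intestine it was 1 gene in each fibroblast type, 8 of 34 in BECs (19.6% of all genes), 6 of 34 in LECs (15.4%) and 3 of 29 in SMCs (17.3%), so the endothelial counts there were near the share of all genes. The early response list thus leaned to the colon in the 3 fibroblast types, where in CD81- FBs and Trophocytes the 10 members had 1 call in the colon each.

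Among other AP-1 and ATF family genes in pooled fibroblasts, Mafk (log2 ratio 0.74) and Atf4 (0.72), an activator of the integrated stress response, were higher in the colon. Batf2 (-0.93), Atf2 (-0.89) and Atf6 (-0.84) were the lowest, and none of these 5 was past 2-fold. Among 17 upstream kinases and factors 0 were past the limit in the colon (6.88% of all genes) and 1 in the small intestine (9.47%). This was Mrtfa, a cofactor of serum response factor (-1.24). Mapk8 (23.7 against 47.4 CPM) and Mrtfb (-0.87) followed. The highest were Elk1 (0.23), Mapk3 (0.20) and Crem (-0.05). In every type 0 of them were past the limit in the colon, and those past it in the small intestine were 2 of 17 in CD81- FBs (10.4% of all genes), 3 of 17 in SEMFs (15.1%), 1 of 17 in Trophocytes (8.24%), 3 of 14 in BECs (19.6%), 4 of 18 in LECs (15.4%) and 3 of 15 in SMCs (17.3%), each near the share of all genes.

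Among 11 heat shock genes in pooled fibroblasts, Hspb1 (1.45) and Hsp90aa1 (1.29) were past the limit in the colon (6.88% of all genes). Hspa1a (0.69) followed. Dnajb1 (-1.04) was past it in the small intestine (9.47%), followed by Hsph1 (-0.85) and Hspa1b (0.06). By label, Dnajb1 stood at 144.5 CPM in colon and 216.9 in small intestinal CD81- FBs, and at 659.9 and 1001 in Trophocytes. In SEMFs Dnajb1 was higher in the colon, at 141.7 against 48.1 CPM. Calls in the colon, out of 11, were 3 in CD81- FBs (6.46% of all genes), 2 in Trophocytes (4.23%) and 6 in SEMFs (5.36%). They were 0 in LECs (3.45%), 3 in BECs (3.10%) and 1 in SMCs (3.37%). In the small intestine 3 were called in LECs (15.4%). None was called there in CD81- FBs (10.4%), Trophocytes (8.24%), SEMFs (15.1%), BECs (19.6%) and SMCs (17.3%). Reference genes in pooled fibroblasts gave 0 calls in the colon (6.88% of all genes) and 1 in the small intestine (9.47%), B2m (-1.10). Tbp was at -0.56 and Actb at -0.51, and Rplp0 (0.55), Eef1a1 (0.34) and Gapdh (0.25) were highest. In SEMFs, where 8 members were past the limit, 1 of the 10 reference genes was past it in the colon (5.36%) and 1 in the small intestine (15.1%). In LECs, where 8 members were past it, 1 of 10 was, in the small intestine (15.4%).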

How the data were processed

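The authors deposited, for each library, raw UMI counts per gene and cell, a table of natural log values and a text table of cell labels. Reads were processed with Cell Ranger 7.1.0 and Seurat 4 on mm10, per the submitters' processing notes; filters on cells are not given in the sources used here. Each deposited natural log value equalled ln(1 + 10000 × UMIs / UMIs of the cell) within 6.2e-15. Counts were used for all main values, and the log values for alternatives. The colon's 3 labels of blood vessel cells were joined under BECs, the name used for the small intestine.

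UMIs were summed per library and label (at least 50 cells in both libraries) and given as CPM with exact Poisson intervals, shares with Clopper-Pearson intervals, and log2 ratios with exact conditional binomial intervals (95%, scipy 1.17.1, counting error only; depth 40684070 and 58134526 UMIs). Genes with at least 100 UMIs over both libraries formed the background. For shares across depths, cells were thinned at random to 2000 UMIs and shallower cells left out. Doublets were not called; the alternative without the 6% of cells with the most UMIs bears on them. The interval script was run on simulated Poisson counts, the spread that the intervals assume. That run cannot show how the intervals hold for counts that vary more over cells, as those of the members did. The members and lists were chosen with earlier results of these data known. All 10 members are named; of each other list the 3 highest and 3 lowest ratios in pooled fibroblasts, and the 10 genes with the highest mean rho with the summed members, are named, except that 1 gene of the AP-1 and ATF family list, and the counts over that list, are not reported here. Motifs were chosen after their matches were seen. No value column was left unmapped. Python 3.11.15, numpy 2.4.6 and pandas 2.3.3 were used.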

Additional observations from a re-analysis of the deposited data

Results flagged for a closer look

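For 6 members, the log2 ratio of colon to small intestine was past 2-fold in opposite directions in a pair of cell types; with 1 library per tissue this difference between types was not tested. The ratio in SEMFs minus that in LECs was 3.38 for Fos, 4.87 for Fosb, 2.78 for Jun, 4.55 for Atf3 and 5.65 for Nr4a2 on the log2 scale, and the ratio of Ier2 in SEMFs minus that in BECs was 3.03. The colon LEC levels came from 217 cells, with Fos at 209 CPM in the Y-linked and 1076 CPM in the Xist cells, and the Nr4a2 level there rested on 11 UMIs. With Xist colon cells alone the LEC ratios of Fos (-0.92) and Jun (-0.76) were no longer past 2-fold, and that of Jun was not relative to the median gene either (-0.80). On mean natural log values the LEC ratios of Jun, Atf3 and Nr4a2 and the SEMF ratios of Fosb, Atf3, Ier2 and Nr4a2 were also short of it. That scale is not a fold of CPM. Jun was detected in 76.0% of colon and 81.9% of small intestinal LECs, and the cause of the lost calls was not tested.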

How the results depend on the processing

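Over 264 recomputed counts and correlations, 224 kept their direction and their size class, 39 moved and 1 changed sign; the cause of the moves was not tested. Of the single log2 ratios past 2-fold, none changed sign under any alternative run. Scaling to the median gene raised ratios by 0.11 to 0.33. Counts of members past 2-fold moved as follows. Those on mean natural log values are on a scale that is not a fold of CPM. On that scale the counts went in the colon from 8 to 3 (SEMFs) and from 1 to 0 (pooled fibroblasts, Trophocytes, SMCs). In the small intestine they went from 8 to 3 (LECs) and from 1 to 0 (pooled fibroblasts), while the count in BECs rose from 5 to 7. Relative to the median gene the colon count went to 2 in CD81- FBs, and the small intestinal count to 5 in LECs, 3 in BECs and 0 in pooled fibroblasts and Trophocytes. With a 1.5-fold limit, colon counts went to 4 (CD81- FBs) and 2 (SMCs), and small intestinal counts to 9 (BECs), 3 (pooled fibroblasts), 2 (Trophocytes) and 1 (CD81- FBs). With Xist colon cells alone the LEC count in the small intestine was 4. With Y-linked colon cells alone it was 0 in pooled fibroblasts and Trophocytes and 1 in SMCs, and with equal weight for the 3 fibroblast labels 0 in pooled fibroblasts.

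Thinning to 2000 UMIs lowered the median rho between members to 0.152 and 0.303 in colon and small intestinal CD81- FBs, 0.325 and 0.239 in Trophocytes, 0.380 and 0.359 in SMCs and 0.288 in colon SEMFs. Without Nr4a1 and Nr4a2 (added after seeing the data) it was 0.387 and 0.585 in CD81- FBs and 0.344 in colon LECs. The rho with heat shock genes (all alternatives added after seeing the data) was 0.661 and 0.662 in thinned colon CD81- FBs and SEMFs, and 0.411 and 0.575 in colon LECs and Trophocytes with Y-linked cells alone. With only Hspa1a and Hspa1b it was 0.55 in colon Trophocytes and, in the small intestine, 0.582 in SEMFs, 0.503 in LECs and -0.092 in BECs, a change of sign. Correlations over Y-linked or Xist cells were not run for colon BECs (11 and 22 cells). The depth limits Nr4a2 in LECs, with 11 colon UMIs, and BECs, with 53 colon cells. No paired analysis was possible because each tissue has 1 library.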
